A study of Salmo salar with 72 samples.

Results

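The genes described are 6 anterior HoxA genes of Atlantic salmon, hoxa2aa, hoxa2ab, hoxa2b, hoxa4a, hoxa4aa and hoxa5aa, taken by their gene identifiers from the 69389 genes of the count tables. They were followed in the distal intestine (DI) and the spleen of the same 36 smolts, 72 libraries in all, with 6 fish on each of 6 diets after 42 days of feeding, with salinity raised to that of seawater over the first days. Fish fed the FM diet received fishmeal, and fish fed the SBM diet received 30% soybean meal. The other 4 diets added dried yeast to the 30% soybean meal. ICJ and ACJ held inactivated and autolyzed Cyberlindnera jadinii, and IWA and AWA held inactivated and autolyzed Wickerhamomyces anomalus. The fish of a diet came from 3 tanks with 2 fish each, and the labels do not say which fish shared a tank, so the p-values treat fish as independent. The DI was sampled as bulk tissue from a segment that runs to the anus, and the position of each piece within it was not given in the sources used here.

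Hox genes encode homeodomain transcription factors that lie in clusters, and their order along a cluster follows the order of the body regions in which they are expressed in the embryo. Genes with low numbers are expressed from the head end, and genes with high numbers at the tail end, where they also pattern the hindgut. In the mouse, Hoxa2 patterns the hindbrain and a pharyngeal arch, Hoxa4 acts in the axial skeleton, and Hoxa5 is needed for the lung and the gut. Salmonids carry additional copies of these clusters from a whole-genome duplication in teleosts and a later one in their own lineage.

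The 6 genes lie on 3 chromosomes of Ssal_v3.1 and each was counted over 2 exons. On chromosome 14, on the plus strand, hoxa4a (ENSSSAG00000065018) spanned 86915537 to 86916980 and hoxa2aa (ENSSSAG00000065006) spanned 86939000 to 86941017. On chromosome 27, on the minus strand, hoxa2ab (ENSSSAG00000053040) spanned 28283681 to 28285676, hoxa4aa (ENSSSAG00000053060) spanned 28306052 to 28307574 and hoxa5aa (ENSSSAG00000053069) spanned 28317400 to 28319521. The only one on chromosome 2, hoxa2b (ENSSSAG00000002095), spanned 9155462 to 9157300 on the minus strand. The counted exons came to between 955 bases for hoxa4a and 1451 bases for hoxa5aa. None of the 6 shared exon bases with another gene model of the tables, although the reference spans of hoxa3a and hoxa3ab run across hoxa4a, hoxa4aa and hoxa5aa. Copies of one gene can share sequence, and how fragments that fit more than one copy were treated was not tested, so the split of counts between copies is uncertain.

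Fragments on genes per library ranged from 6976621 to 30857656 for DI and from 15062129 to 35187924 for spleen. The labels of the tissues matched their marker genes. All 5 enterocyte genes tested were higher in the DI, where they summed to at least 392 CPM against at most 84.8 CPM in any spleen. Both red cell genes tested were higher in the spleen, where they summed to at least 1038 CPM against at most 99.3 CPM in any DI. One DI library, ICJ replicate 4, stood apart, with a median correlation of 0.75 with the other DI libraries. It held 354 CPM of cdh17, an intestinal cadherin, below all 35 other DI libraries, and 1 fragment of ret, a receptor of enteric neurons. In the file headers, FM replicates 3, 4 and 5 of the DI carry a folder path that no other library has.

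The question of the first comparison was in which tissue each gene was higher. The hoxa2 copies and hoxa5aa were higher in the DI, and both hoxa4 copies were far higher in the spleen. The largest difference was that of hoxa4a, with 5.30 ± 0.91 CPM in the spleen and 0.58 ± 0.37 CPM in the DI (mean ± SD, n = 36 fish). In bulk tissue, fewer cells of a type and less RNA per cell cannot be told apart. Values are CPM after TMM scaling over the 72 libraries. The main tissue test took the DI and spleen libraries of a fish as independent, and the fish as a block was an alternative.

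In the DI, hoxa4a had between 0.068 and 1.59 CPM with a median of 0.57, and in the spleen between 3.86 and 7.85 with a median of 4.94. The ranges did not overlap, and the spleen value was the higher one in all 36 fish. The log2 difference, DI minus spleen, was -3.21 (SE 0.17, adjusted p = 3.75e-27, edgeR). Its copy on chromosome 27, hoxa4aa, had between 0.071 and 1.03 CPM with a median of 0.52 in the DI, and between 1.97 and 4.4 with a median of 3.02 in the spleen. These ranges did not overlap either, again with the spleen above the DI in all 36 fish. The share of all genes whose ranges do not overlap between the tissues was not computed, so the separation alone does not set these genes apart. The log2 difference was -2.54 (SE 0.13, adjusted p = 4.00e-27, edgeR). The DI levels of both genes rested on few fragments, 1 to 24 per library for hoxa4a and 1 to 18 for hoxa4aa.

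The neighbour of hoxa4aa on chromosome 27, hoxa5aa, went the other way. It had between 2.76 and 8.54 CPM with a median of 4.33 in the DI, and between 1.25 and 3.00 with a median of 2.31 in the spleen. The DI was above the spleen in all 36 fish, although 2 DI libraries lay at or below the highest spleen. The log2 difference was 0.97 (SE 0.08, adjusted p = 1.41e-17, edgeR).

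Among the hoxa2 copies, hoxa2b was the lowest in level and had the largest difference. It had between 0.095 and 1.35 CPM with a median of 0.71 in the DI, and between 0 and 0.43 with a median of 0.15 in the spleen. The DI was higher in all 36 fish and the log2 difference was 2.10 (SE 0.19, adjusted p = 8.97e-16, edgeR). In 3 spleen libraries hoxa2b had no fragment, where 3 fragments would be between 0.12 and 0.18 CPM, so a low level there was not detectable at this depth. On chromosome 27, hoxa2ab had between 0.37 and 2.31 CPM with a median of 1.37 in the DI, and between 0.15 and 1.03 with a median of 0.50 in the spleen. It was higher in the DI in 33 of 36 fish, with a log2 difference of 1.24 (SE 0.14, adjusted p = 1.18e-12, edgeR). On chromosome 14, hoxa2aa had between 1.89 and 7.09 CPM with a median of 3.04 in the DI, and between 1.55 and 4.59 with a median of 2.57 in the spleen. The ranges overlapped in most libraries, the DI was higher in 23 of 36 fish, and the log2 difference was 0.35 (SE 0.10, adjusted p = 0.00105, edgeR).

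All 6 genes were therefore called between the tissues, beside 86.4% of all 35067 genes tested, so that a call alone does not set them apart. The sizes did differ. Of all genes tested, 87.0% had a smaller absolute difference than hoxa4a, 82.4% than hoxa4aa and 77.5% than hoxa2b, but 23.5% than hoxa2aa. The median log2 difference of all genes was -0.04. The directions were the same under RLE size factors, without a filter on low counts, with DESeq2, without ICJ replicate 4 and with the fish as a block.

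**Figure D1:**
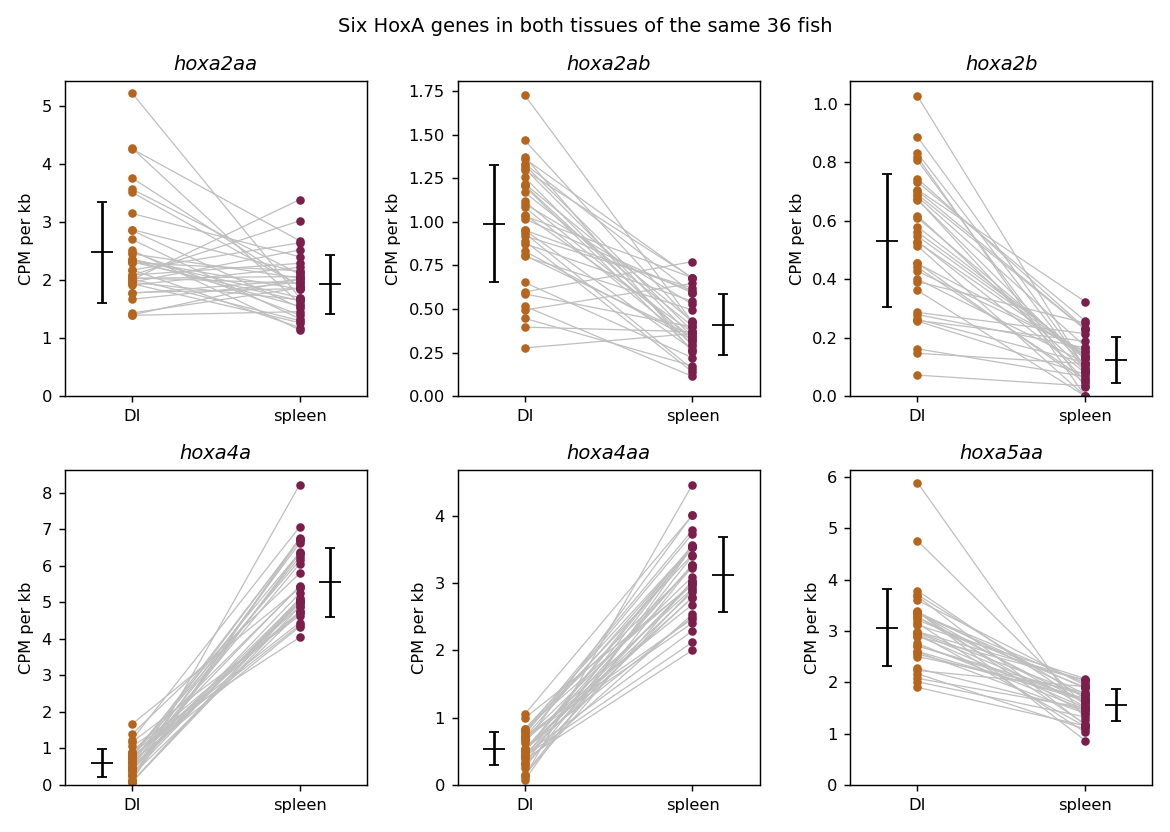
Level of each gene in CPM per kb of counted exon (y axis) in the DI and the spleen (x axis) of 36 fish, with a grey line joining the tissues of a fish and black bars for the mean ± SD. The points of hoxa4a and hoxa4aa were higher in the spleen in 36 of 36 fish, while hoxa2aa was higher in the DI in 23 of 36.

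Duplicate copies did not differ between the tissues by the same amount. Within fish, the tissue difference of hoxa2ab exceeded that of hoxa2aa by 0.82 on the log2 scale (SD 0.76, 32 of 36 fish, adjusted p = 2.67e-05, permutation test), and that of hoxa2b exceeded it by 1.29 (SD 0.93, 34 of 36 fish, adjusted p = 2.67e-05). The difference of hoxa2b exceeded that of hoxa2ab by 0.46 (SD 0.92, 27 of 36 fish, adjusted p = 0.00476, permutation test). The difference of hoxa4a was more negative than that of hoxa4aa by 0.78 (SD 0.73, 33 of 36 fish, adjusted p = 2.67e-05, permutation test). These 4 two-sided sign-flip tests with 100000 resamples were chosen after the values had been seen, and 3 of them had the smallest p that the resamples can give. They used log2 CPM with a prior count of 2, on which the mean tissue difference of hoxa2b was 1.61, against 2.10 in edgeR. The sizes thus depend on the measure. With log2 of counts + 1, the difference of hoxa2b exceeded that of hoxa2aa by 1.60 and that of hoxa2ab by 0.69.

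Seen as shares per kb, hoxa2aa made up 61.7% ± 8.6 of the DI signal of the 3 hoxa2 genes and 78.5% ± 6.6 of their spleen signal (SD, n = 36). The share of hoxa2ab went from 24.8% ± 6.4 for DI to 16.5% ± 5.2 for spleen, and that of hoxa2b from 13.5% ± 5.2 to 5.03% ± 3.31. The 2 hoxa4 genes were at parity in the DI, with 50.2% ± 15.3 for hoxa4a, while hoxa4a held 63.9% ± 4.1 in the spleen. The spread of this share was wider in the DI, where both genes had few fragments.

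The order of the levels, in CPM per kb, differed between the tissues. In the DI, hoxa5aa led with 3.06 ± 0.76, followed by hoxa2aa with 2.48 ± 0.87, and hoxa5aa was the higher one in 29 of 36 fish. The next gene was hoxa2ab with 0.99 ± 0.34, below hoxa2aa in all 36 fish. The last 3 were hoxa4a with 0.61 ± 0.38, hoxa4aa with 0.54 ± 0.24 and hoxa2b with 0.53 ± 0.23. These 3 did not separate beyond their spread, since hoxa4a exceeded hoxa4aa in 22 of 36 fish and hoxa4aa exceeded hoxa2b in 18 of 36.

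In the spleen, hoxa4a led with 5.54 ± 0.95 CPM per kb and hoxa4aa followed with 3.12 ± 0.55, lower in all 36 fish. Below them, hoxa2aa had 1.93 ± 0.50 and hoxa5aa had 1.56 ± 0.31, in this order in 25 of 36 fish. The lowest levels were those of hoxa2ab with 0.41 ± 0.17 and hoxa2b with 0.12 ± 0.08, in this order in 35 of 36 fish.

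The other gene models of the 3 HoxA clusters placed these differences in context. Several models of the tables join neighbouring Hox genes of the reference, and they are named by the genes they cover. Some also count bases outside these genes. The model that covers hoxa1a has 3321 counted bases, more than that gene spans in the reference (86945200 to 86947160). On chromosome 14, the model that covers hoxa1a was higher in the DI, with a log2 difference of 2.67 (SE 0.24), and the 2 models within hoxa3a followed with 1.21 (SE 0.10) and 0.59 (SE 0.18). After hoxa4a the model within hoxa5a was lower in the DI by a small amount, -0.46 (SE 0.10), with 2.34 ± 0.70 CPM in the DI and 3.21 ± 0.67 CPM in the spleen. Beyond hoxa5a the difference turned steeply positive, with 6.45 (SE 0.24) for the model that covers hoxa9ab and hoxa7ab and 6.81 (SE 0.20) for hoxa11aa. No model covers hoxa7ab alone, so its own difference is not known.

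On chromosome 27, the model within hoxa3ab was higher in the DI with a log2 difference of 1.65 (SE 0.10), hoxa4aa was lower, and hoxa5aa was higher. Next in the row, the model that covers hoxa7aa had 52.5 ± 13.9 CPM in the DI and 2.73 ± 0.85 in the spleen, and hoxa11ab had 6.76 ± 2.02 and 0.48 ± 0.22. These CPM are not divided by length and do not compare in level between the models. The model that covers hoxa7aa was counted over 8949 bases, more than that gene spans in the reference (28325102 to 28329184), and hoxa11ab over 1367. At the far end, hoxa13, a gene of the tail end and hindgut, had 9.72 ± 6.43 CPM in the DI and 1 fragment in 1 of the 36 spleens. On chromosome 2, hoxa2b was followed by hoxa9b with a log2 difference of 5.90 (SE 0.28) and by the model that covers hoxa10b with 5.82 (SE 0.31). Of the 21 models of the clusters shown, only hoxa4a, hoxa4aa and the model within hoxa5a were lower in the DI. These calls stand beside 86.4% of all 35067 genes called between the tissues. Of 5 other genes here paired with a hoxa symbol, 5 passed the filter on low counts in the fit of the DI libraries. Only 1 of them passed in that of the spleen. Most thus entered the test through the DI, so their direction was largely set by the filter.

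**Figure D2:**
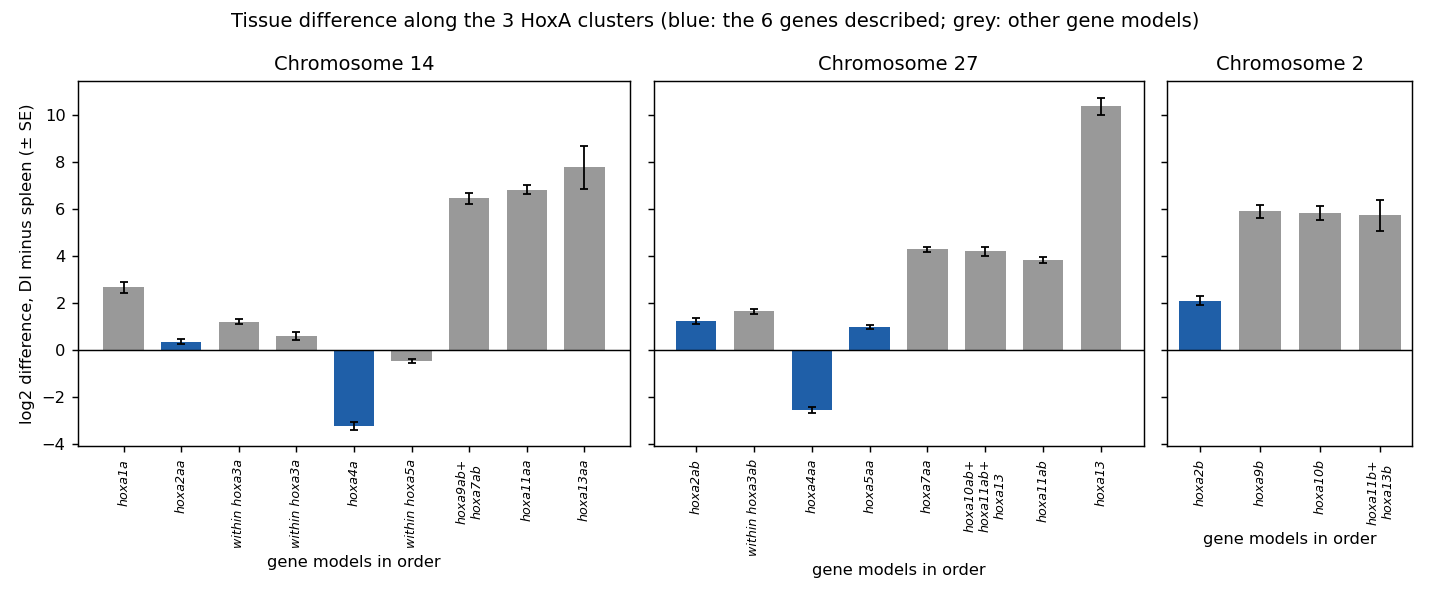
Log2 difference between DI and spleen (y axis, bars with ± SE) for the gene models of the HoxA clusters on chromosomes 14, 27 and 2 in chromosome order (x axis), with the 6 genes described in blue. The bars of hoxa4a and hoxa4aa point to the spleen at -3.21 and -2.54 and the model within hoxa5a at -0.46, and the bar of hoxa13 rests on 1 fragment in the spleen.

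Hox genes were then counted by paralogue group, over the gene models paired with a Hox symbol by position. Models without such a pairing are not in these counts, among them those that cover hoxa1a or lie within hoxa3a, hoxa3ab and hoxa5a. Of the 24 tested genes of paralogue groups 9 to 13 from all clusters, 24 were higher in the DI, with a median log2 difference of 5.89. Only 3 genes of these groups passed the filter in the fit of the spleen libraries, against 24 in that of the DI. Most thus entered the test through the tissue where they are high, so the direction of this count was largely set by the filter. With the 4 genes that had no fragment in the spleen set at 3 fragments over the tissue, the median was 6.34. The median thus depends on how such genes are handled. Of the 14 tested genes of groups 4 to 8 other than those described, 5 were higher in the DI and 7 were higher in the spleen, and the median was -0.53. The largest differences toward the spleen were those of hoxc5, at -3.89 (SE 0.16), and hoxc6ba, at -2.75 (SE 0.25). The largest toward the DI were those of hoxd4ab, at 3.60 (SE 0.28), and hoxd4a, at 2.26 (SE 0.25). The filter was passed by 11 of these 14 genes in the fit of the DI and by 12 in that of the spleen. One that did not pass in the fit of the DI was hoxd4ab. It had 261 fragments over all DI libraries and 25 over all spleen libraries, so its difference rests on few fragments. Only 1 gene of groups 1 to 3 so paired, other than those described, passed the filter. This was hoxd1aa, which had 1294 fragments in the DI and 3 in the spleen. It passed in the fit of the DI and not in that of the spleen, so its direction too was largely set by the filter. All these calls stand beside the 86.4% of all genes called.

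Hox proteins bind DNA together with partners of the Meis and Pbx families. All 5 tested genes of these families were lower in the DI, with a median log2 difference of -1.09. Like the other counts of this paragraph, this stands beside the 86.4% of all 35067 genes called between the tissues. The median is that of pbx3b, which passed the filter in the fit of the spleen libraries but not in that of the DI. The largest differences were those of meis1b, at -1.49 (SE 0.11), and meis2a, at -1.33 (SE 0.14). Retinoic acid is known to switch on anterior Hox genes in the embryo, and of its 6 tested genes 4 were higher in the spleen, 1 was higher in the DI and 1 was not called, with a median of -1.50. The largest toward the spleen were crabp1a, a retinoic acid binding protein, at -5.41 (SE 0.58), and the receptor gene rxrga, at -2.76 (SE 0.23), while rxrgb was higher in the DI by 1.26 (SE 0.11). With 8 fragments over the DI libraries, crabp1a did not pass the filter in the fit of the DI. It entered the test through the spleen, so its direction was largely set by the filter. Among 5 other patterning genes tested, cdx1b, an intestinal homeobox gene, had 133 CPM in the DI and 0.046 in the spleen, and pdx1 was higher in the DI by 5.51 (SE 0.32). Of these 5, 4 passed the filter in the fit of the DI and 2 in that of the spleen. Over the spleen libraries cdx1b had 33 fragments and pdx1 had 76, so their direction was largely set by the filter. Higher in the spleen was nkx3-2, needed for the spleen in the mouse, with 11.3 CPM there and 1.27 in the DI.

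The second question was whether diet moved these genes. No difference between diets was called for any of the 6 genes in either tissue. In the DI, the test of any diet difference gave adjusted p between 0.50 and 0.97 (edgeR) for the 6 genes, beside 0.379% of 32157 genes called. In the spleen, 5 genes could be tested, with adjusted p between 0.97 and 1.00, beside 0% of 32144 genes called. Of these 32144 genes, 1645 had an unadjusted p under 0.05 (edgeR), where chance gives about 1 in 20. The sixth, hoxa2b, did not pass the filter in the spleen.

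Against the FM diet in the DI, 0 of 6 genes were called for SBM|FM beside 0.0187% of all genes, for ICJ|FM beside 0.0466%, for ACJ|FM beside 0.00311%, for IWA|FM beside 0.308% and for AWA|FM beside 3.41%. Of these 30 values, 3 had an unadjusted p under 0.05, beside 13.9% of the values of all genes in the 5 comparisons, so the count is no result about these genes. DESeq2 called none either. The 5 comparisons share the same 6 FM fish.

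The lowest unadjusted p was that of hoxa2ab in SBM|FM. In the DI of fish fed FM, hoxa2ab had between 0.37 and 1.84 CPM with a median of 0.72, and in fish fed SBM between 0.69 and 2.31 with a median of 1.80. The groups overlapped. The log2 difference was 0.83 (95% interval 0.19 to 1.46), with an unadjusted p of 0.0125 and an adjusted p of 0.42 (edgeR). In AWA|FM it was 0.64 (0.01 to 1.28, adjusted p = 0.20, edgeR), and in all 5 comparisons it was between 0.39 and 0.83. These values leaned on the FM libraries from the separate folder, which had 0.37, 0.53 and 0.78 CPM against 0.66, 1.19 and 1.84 CPM in the other 3. Without them the difference was 0.40 in SBM|FM and 0.18 in AWA|FM, and the part of the folder in these values was not tested.

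The chromosome 2 copy, hoxa2b, had between 0.095 and 0.89 CPM in fish fed FM with a median of 0.45, and between 0.48 and 1.35 in fish fed ACJ with a median of 1.02. The groups overlapped, and the log2 difference of 0.97 (95% interval 0.14 to 1.80) had an unadjusted p of 0.0234 and an adjusted p of 1.00 (edgeR). Over the 5 diets its difference from FM lay between 0.35 and 0.97. In the third hoxa2 copy, hoxa2aa, it lay between -0.35 and 0.08. Its FM values did not overlap by folder, with 1.89 to 3.18 CPM in the separate folder and 3.66 to 5.80 CPM in the other 3 FM fish. Those of the other genes described overlapped, and the share of all genes that split by folder was not computed.

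The widest intervals were those of hoxa4a, whose differences from FM in the DI lay between -0.88 and -0.18 with bounds from -2.10 to 1.00. Its means ran from 0.43 ± 0.31 CPM in fish fed ICJ to 0.75 ± 0.53 CPM in fish fed FM (SD, n = 6). The FM values had a median of 0.36 CPM in the separate folder, from 0.076 to 0.81, and of 1.01 CPM in the other 3 fish, from 0.67 to 1.59. The copy on chromosome 27, hoxa4aa, lay between 0.04 and 0.42, with bounds from -0.90 to 1.35. The narrowest were those of hoxa5aa, between -0.31 and 0.07 with bounds from -0.75 to 0.50. Its means ran from 3.84 ± 0.90 CPM in fish fed ICJ to 4.93 ± 1.93 CPM in fish fed SBM.

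Yeast species and processing were compared on the soybean background, with each yeast diet set against SBM, ACJ against ICJ and AWA against IWA. None of the 36 values was called, and none had an unadjusted p under 0.05, beside 0% of all genes called in each of the 6 comparisons. The differences ranged from -0.55 to 0.70, both for hoxa4a, with bounds from -1.78 to 1.92.

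In the spleen, 0 of 5 genes were called against FM in any of the 5 diets, beside 0% of all genes, and none of the 25 values had an unadjusted p under 0.05. The spleen values of hoxa4aa were the closest to FM, with differences between -0.03 and 0.04 and bounds from -0.37 to 0.37. Its means lay between 3.02 ± 0.46 CPM in fish fed AWA and 3.16 ± 0.28 CPM in fish fed IWA. Those of hoxa4a lay between 4.89 ± 0.77 CPM in fish fed FM and 5.63 ± 1.24 CPM in fish fed ICJ. Untested for want of counts, hoxa2b had 0.29 ± 0.10 CPM in fish fed AWA and between 0.098 and 0.21 CPM on average in the others. Without the filter its AWA|FM difference was 0.98 (adjusted p = 0.72, edgeR).

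The tissue differences did not vary with diet beyond the spread. The interaction of diet and tissue gave adjusted p between 0.44 and 1.00 (edgeR) for the 6 genes, none of which had an unadjusted p under 0.05, beside 0.16% of all genes called. The mean difference between the tissues of a fish, by diet, lay between -3.72 and -2.86 for hoxa4a and between -2.73 and -2.30 for hoxa4aa on the log2 scale.

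**Figure D3:**
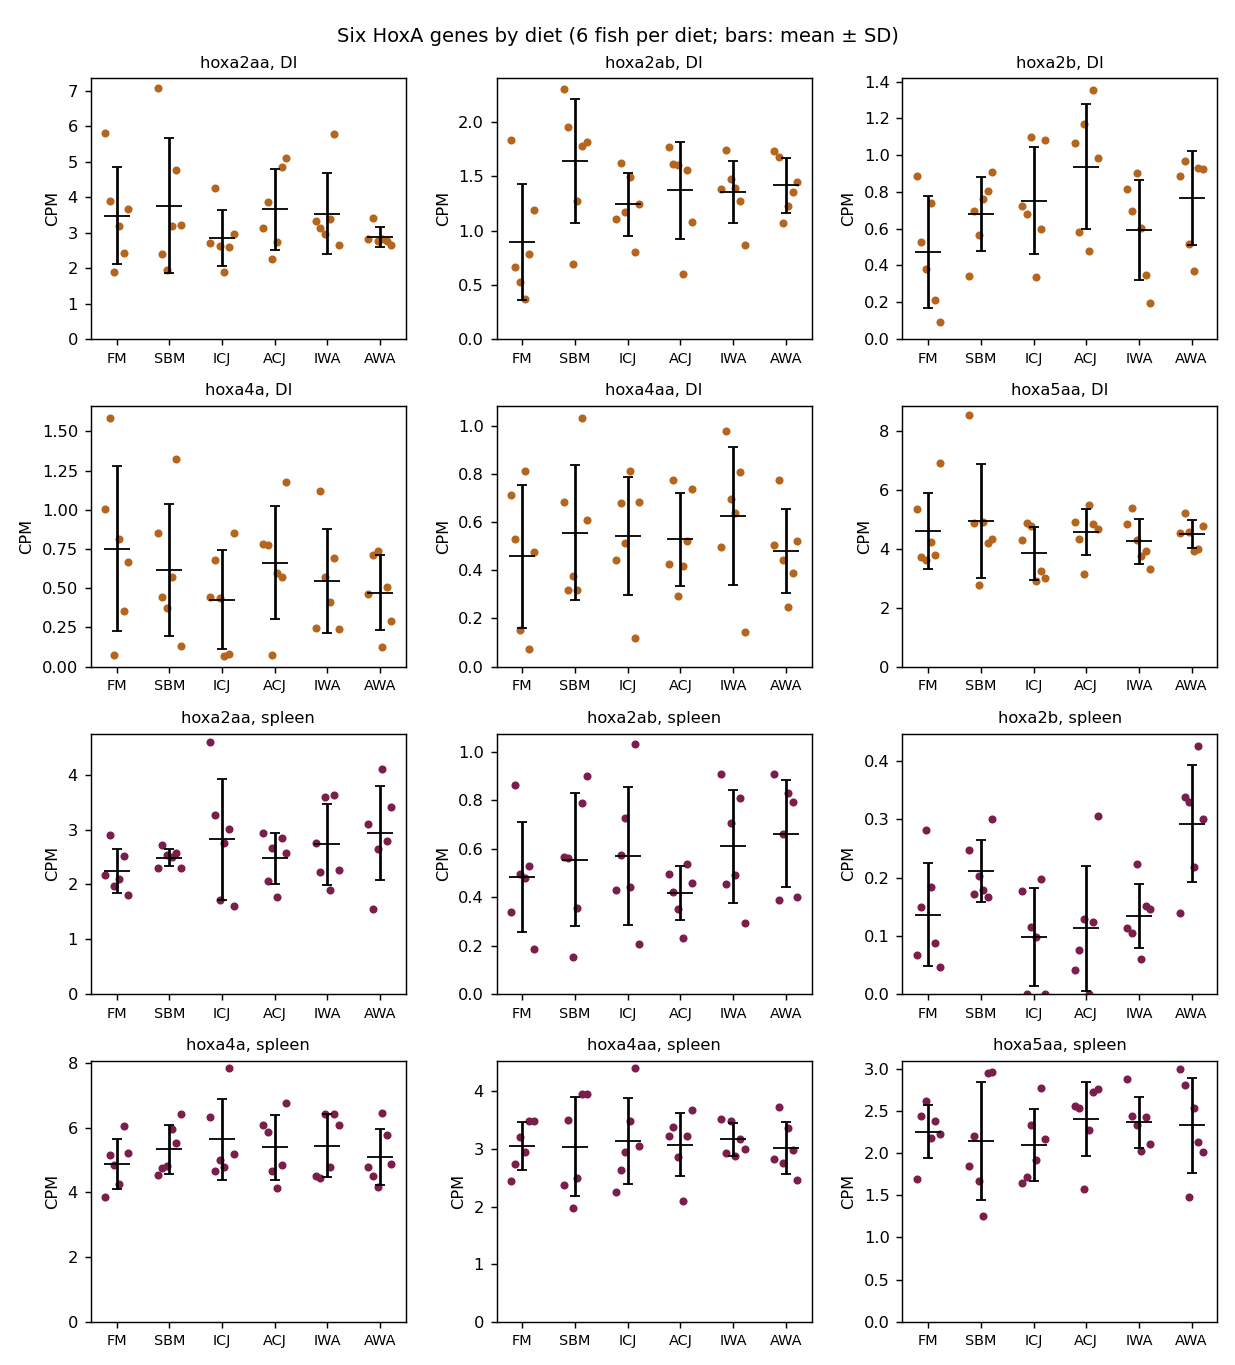
CPM of each gene (y axis) by diet (x axis) in the DI, brown, and the spleen, purple, with a point per fish and black bars for the mean ± SD of 6 fish. The diets overlap in every panel of the DI, and the lowest and highest diet means of hoxa4aa in the spleen are 3.02 and 3.16 CPM.

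**Figure D4:**
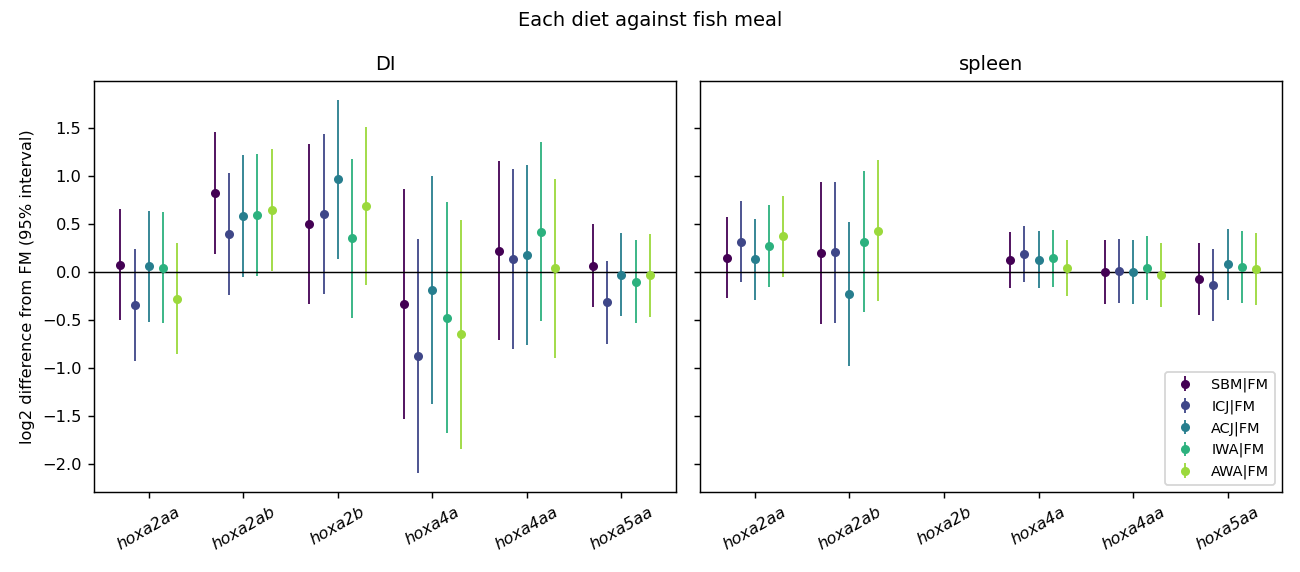
Log2 difference of each diet from FM (y axis) with its 95% interval, for each gene (x axis) in the DI and the spleen. The intervals of hoxa4a in the DI are the widest, from -2.10 to 1.00 over the 5 diets, and hoxa2b has no value in the spleen because it did not pass the filter there.

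The spread of fish within a diet differed between the genes and between the tissues. In the DI, hoxa4a varied most, with a within-diet SD of 0.95 on the log2 CPM scale and a biological coefficient of variation of 0.62, above that of 82.6% of genes. The highest fish had 23.4 times the CPM of the lowest, while the highest diet mean was 1.76 times the lowest. The lowest fish had 1 fragment, in ICJ replicate 4, so the ratio between fish rests on a value at the floor of the counts. The coefficients of the others in the DI were 0.41 for hoxa4aa, 0.37 for hoxa2b, 0.33 for hoxa2aa, 0.30 for hoxa2ab and 0.25 for hoxa5aa, where the median of all genes was 0.34. In the spleen hoxa4a and hoxa4aa were among the steadier ones, with 0.17 and 0.18, near the median of 0.19, and their highest fish had 2.04 and 2.23 times the CPM of the lowest. The coefficient of hoxa2ab in the spleen was 0.33, above that of 79.5% of genes.

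Within a tissue, several of the genes were positively related over the fish of a diet. Relations were computed on log2 CPM with the diet means removed, 60 in all, and 31 passed an adjusted p of 0.05 by permutation (100000 resamples, two-sided). The values were shuffled over all fish of a tissue, with no allowance for the diet means removed. The p-values are therefore somewhat too low, and calls close to the threshold are uncertain. All relations share the scaling of their libraries, and in genes with few fragments they are blurred by counting error. In the DI, 9 of 15 pairs passed, all positive. The closest were hoxa4a with hoxa4aa (r = 0.64, rho = 0.67, adjusted p = 0.00075 for r, permutation test) and hoxa2aa with hoxa4a (r = 0.63, rho = 0.68, adjusted p = 0.00040, permutation test), both on chromosome 14. Without the 2 fish farthest from the median these were 0.60 and 0.65. In that setting 5 of 15 pairs passed, and the calls of hoxa2ab with hoxa4aa and hoxa5aa, and of hoxa5aa with both hoxa4 copies, were lost. Over all pairs of the 32157 genes tested, 15.8% had an r at or above 0.37, the smallest called here, so that positive relations were common in these libraries. None of the 5 pairs with hoxa2b passed, with r between -0.02 and 0.36.

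In the spleen 6 of 10 pairs passed, all positive, where 7.11% of all gene pairs had an r at or above 0.37. Without the 2 farthest fish 2 of 10 passed, hoxa4aa with hoxa5aa and hoxa2ab with hoxa5aa. The closest was hoxa4aa with hoxa5aa, neighbours on chromosome 27 (r = 0.68, rho = 0.71, adjusted p = 0.00030, permutation test), and r was 0.65 without the 2 farthest fish. The pair of hoxa4 copies had r = 0.48 there, and 0.37 without the 2 farthest fish, which no longer passed. Levels in the DI and the spleen of a fish showed no relation that passed, with r between -0.18 and 0.16 over the 5 genes tested in both. Library totals had r between -0.32 and 0.09 with the DI levels, the most negative for hoxa4aa (-0.32), hoxa2aa (-0.27) and hoxa4a (-0.22). In the spleen r reached 0.44 for hoxa2aa and 0.40 for hoxa2ab. The part of depth in the relations between genes was not tested.

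Each gene was also set against marker lists of cells of the gut wall in the DI, and hoxa2b passed with none of them. The list of enteric neurons and glia came down to 6 neuronal genes, elavl3, elavl4, nos1, ret, stmn2b and vipb, since its glial gene plp1a did not pass the filter. With their mean, 5 of 6 genes passed, with r up to 0.63 for hoxa4a (rho = 0.61, adjusted p = 0.00080, permutation test). It was 0.61 without the 2 farthest fish, where 4 of 6 passed. Of all genes tested, 12.2% had an r at or above 0.37 with this list. With 3 smooth muscle genes, 4 of 6 passed, with r up to 0.48 for hoxa5aa, beside 9.82% of all genes at or above 0.37, and 2 of 6 without the 2 farthest fish. With the fibroblast list, which held only col1a1a and lum, 3 of 6 passed, led by hoxa4aa (r = 0.72, rho = 0.73, adjusted p = 0.00030, permutation test), with r = 0.65 without the 2 farthest fish, where the same count of 3 passed, and 16.6% of all genes reached 0.37. With 5 enterocyte genes 2 of 6 passed, hoxa4a (r = 0.48) and hoxa2aa (r = 0.43), beside 16.2% of all genes at or above 0.37. Without the 2 farthest fish these were 0.39 and 0.33, and 0 of 6 passed (adjusted p = 0.0687 and 0.121, permutation test). The summed smooth muscle genes ranged from 64.1 to 1112 CPM over the DI libraries and the fibroblast genes from 53.7 to 638 CPM, and the part of cell makeup in the spread of the Hox genes was not tested.

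With the posterior Hox genes of groups 9 to 13 the relation was negative for all 6 genes and passed for hoxa4a (r = -0.51, rho = -0.51, adjusted p = 0.00632, permutation test) and hoxa4aa (r = -0.43, rho = -0.49, adjusted p = 0.0196, permutation test). Of all genes tested, 20.3% had an r at or below -0.37 with this list. Without the 2 farthest fish r was -0.41 and -0.38, and neither passed (adjusted p = 0.0546 and 0.0755, permutation test). Without the FM libraries from the separate folder r was -0.55 and -0.59. The posterior genes themselves differed in their spread over the DI. It was wide for hoxa13, with 2.03 to 25.5 CPM, and for hoxa13aa, with 0 to 25.2 CPM and no fragment in 10 of 36 DI libraries. It was narrower for hoxa11aa, with 8.27 ± 2.15 CPM, and for hoxa11ab, with 6.76 ± 2.02 CPM (mean ± SD).

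**Figure D5:**
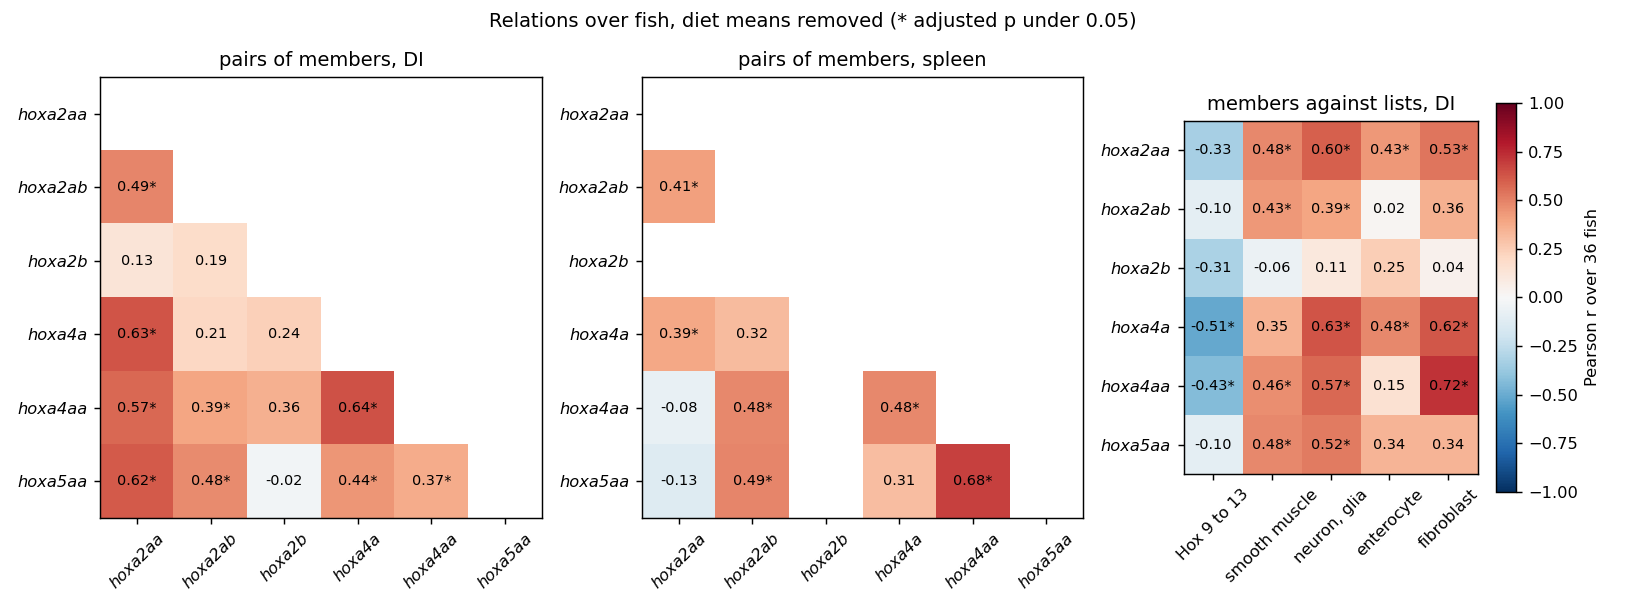
Pearson r over 36 fish, diet means removed, for pairs of the 6 genes in the DI (left) and the spleen (middle), and for each gene against the mean log2 CPM of 5 gene lists in the DI (right). The list labelled neuron, glia holds neuronal genes only. Red is positive, blue is negative and stars mark an adjusted p under 0.05: 9 of 15 pairs in the DI, 6 of 10 in the spleen and 16 of 30 relations with lists.

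Of 6784 other named genes with a mean of at least 1 CPM in the DI, those that followed each member most closely over the 36 DI libraries are given as a description, with no test, since they were picked as the closest. The closest to hoxa4a was col27a1b, a fibrillar collagen gene, with r = 0.80, followed by hmcn2 with 0.78 and zmym4.1 with 0.75. The same collagen gene was close to hoxa2aa with r = 0.77, beside arhgap17a with 0.77 and neo1a, a netrin receptor gene, with 0.74. Closest to hoxa4aa were tspan9a with 0.79, phex with 0.78 and st5 with 0.78, and closest to hoxa5aa were adam17b with 0.76, asap3 with 0.71 and the growth factor gene tgfb5 with 0.70. The genes closest to hoxa2ab were wrnip1 with 0.68, nkx3.3 with 0.65 and f7i with 0.64. Those closest to hoxa2b were less close, with 0.60 for nkx3-2 and 0.59 each for grip2a and xkr5a.

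Of the lists of Hox genes, partners, retinoic acid and patterning genes, 1 gene was called for diet in the DI, hoxb8ab (adjusted p = 0.00193, edgeR, any diet). It had 106 CPM in the DI of ICJ replicate 4, the library that stood apart, and at most 1.91 CPM in the other 35. Of the genes described, hoxa4a had its lowest value of all DI libraries in that library, 1 fragment or 0.068 CPM, while hoxa4aa had 0.81 CPM there, above 32 of the 35 others. The tissue and diet calls of the 6 genes were the same without it.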

How the data were processed

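RNA of the DI and the spleen of 36 fish was sequenced as stranded mRNA libraries. According to the methods, the authors trimmed reads with Trim Galore, aligned them to Ssal_v3.1 with STAR_RSEM and counted fragments with featureCounts (version 1.4.6 in the methods, 1.5.1 in the file headers, with strand and pairs set). The deposited values are raw fragment counts per gene, without normalization. The 6 genes and all gene lists were chosen with earlier results of these data known. Symbols came from RefSeq genes of Ssal_v3.1 that overlapped a gene by at least 50% of both spans, which paired 34983 of 69389 genes; 8967 pairs gave a gene symbol and the rest a LOC identifier or none.

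Counts were scaled by TMM and tested with edgeR 4.0.16 (quasi-likelihood, robust, default filter), in one fit of the 72 libraries for tissue and interaction and one of 36 libraries per tissue for diets. The fit of the 72 libraries held no term for the fish. The threshold was a Benjamini-Hochberg adjusted p of 0.05 over all genes tested. CPM per kb is CPM divided by counted exon length. Correlations, differences within fish and SDs on the log2 scale used log2 CPM with a prior count of 2. The edgeR tests of tissue and AWA|FM were tested on simulated data, drawn with no link between the libraries of a fish or a tank. The simulation thus cannot show how such links affect the p-values. Of 66 relations planned, 60 could be computed, since hoxa2b did not pass the filter in the spleen. Named genes were the members, the 3 closest genes of each, HoxA neighbours, and the 2 largest differences in each direction of a list. DESeq2 1.42.0, RLE, no filter, a fold limit, fits of 12 libraries and libraries left out were alternatives. Same-numbered libraries shared only a number (median r -0.04 in the DI, 0.10 in the spleen), while DI and spleen of a fish come from one animal (median r 0.27).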

Additional observations from a re-analysis of the deposited data

Results flagged for a closer look

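Each gene in the 6 fish of a diet and tissue was taken as a group, 72 in all, so the same fish enter once per gene. In 3 of the 72 groups, 1 fish lay far above the other 5 by Dixon's test at the 95% level. Chance gives about 1 in 20 groups, so the count is no more than chance gives. All 3 were in the DI. In IWA replicate 5, hoxa2aa had 5.78 CPM, against 3.38 in the next highest fish. The value rests on 50 fragments in the shallowest of the 72 libraries, with 6976621 fragments on genes and a median correlation of 0.87 with the other DI libraries. In AWA replicate 2, hoxa2aa had 3.42 CPM, against 2.83 in the next highest, in a group with a narrow range. In SBM replicate 1, hoxa5aa had 8.54 CPM, against 4.90 in the next highest.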

How the results depend on the processing

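The 6 tissue calls held under each of the 5 alternatives, with log2 differences between 0.27 and 0.41 for hoxa2aa and between -3.32 and -3.17 for hoxa4a. The fish as a replicate block gave 0.33 for hoxa2aa and -3.32 for hoxa4a, and changed no call of the 6 genes. With the replicate number as a block for diets, the difference of hoxa2ab in SBM|FM was 0.86 and 0 members were called. Leaving out each library in turn, DESeq2, RLE size factors, no filter, the fits of 12 libraries and the fold limit of 2 also gave 0 called members in every diet test. The lowest adjusted p of a member over all of these was 0.11, and the highest 1.00. Leaving out ICJ replicate 4 could not apply to the fits of the spleen alone. Over all genes the count of any-diet calls in the DI, 122, lay between 57 and 350 with a library left out and between 3 and 1399 under other settings, and that of the interaction, 56, between 0 and 794. Of the 31 relations over fish, 16 passed without the 2 fish farthest from the median, and the cause was not tested. By CPM without division by length, 3 of 6 genes kept their rank in the DI and all 6 in the spleen. Depth limits hoxa4a, hoxa4aa and hoxa2b in the DI and hoxa2b in the spleen, with medians of 10, 10, 13.5 and 4 fragments per library.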
